A study of Caenorhabditis elegans with 6 samples.

Results

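The cytosolic ribosomal protein genes of Caenorhabditis elegans were followed in sorted BAG neurons, head sensory neurons that respond to carbon dioxide and oxygen, and in the other cells of the same kind of embryonic culture. Members were all genes whose name in the deposited table is rpl- or rps- followed by a number, together with the stalk genes rla-0, rla-1 and rla-2. The rule gave 78 of the 47063 genes in the table: 44 rpl genes of the large subunit, 31 rps genes of the small subunit and 3 rla genes. The rule uses names alone, although it was set with earlier results of these data known. The 6 RNA-seq libraries form 3 groups of 2: GFP-positive cells of strain FQ705, which carries the pmk-3(wz31) mutation (mutant BAG neurons), GFP-positive cells of strain FQ424, wild type at pmk-3 (wild-type BAG neurons), and non-fluorescent cells of FQ424 (non-BAG cells). The GFP transgene wzIs113[Pgcy-9::GFP], driven by the gcy-9 promoter and independent of pmk-3 per the labels, was present in all 3 groups, and pmk-3 encodes a p38 MAP kinase. The cells were dissociated from embryos, cultured overnight and sorted the next day with dead cells excluded, and each library was amplified from very little RNA. The design text calls the libraries of a group biological replicates, without saying whether they came from separate cultures. The p-values below therefore speak of the spread between libraries alone, and part of it may be technical.

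A ribosome is built from a large and a small subunit, each a core of ribosomal RNA carrying many small basic proteins. Assembled ribosomes hold most of these proteins in single copies, with the acidic stalk proteins as the known exception, and in most eukaryotes the mRNAs of the family are among the most abundant and vary together. The stalk recruits the elongation factors that drive translation, and dividing and growing cells are known for a high demand for new ribosomes. BAG neurons are postmitotic, whereas the non-BAG population is a mixture of embryonic cell types.

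The sorted populations matched their labels. Against non-BAG cells, 16.2% of all genes tested rose in mutant BAG neurons and 10.2% in wild-type BAG neurons. Of 10 BAG marker genes, 10 rose in each. Their summed normalised read count was 65893 and 78541 in mutant BAG neurons, 64114 and 62396 in wild-type BAG neurons, against 1578 and 1048 in non-BAG cells. The transcript of pmk-3 was present in every library, at 259.8 and 284 in mutant BAG neurons, 671 and 585 in wild-type BAG neurons, against 404 and 553 in non-BAG cells, so both mutant libraries were the lowest. The table held 6181113 to 8596169 reads a library, of which ribosomal RNA genes took 10.4% to 14.95%. Levels below are normalised read counts, in which a library's reads are divided by its own scaling value.

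Ribosomal protein mRNAs took about 1% of all reads. Their share was 0.951% and 1.05% in mutant BAG neurons, 0.747% and 1.18% in wild-type BAG neurons, against 1.34% and 1.47% in non-BAG cells. The 95% Wilson intervals of these shares were narrow, for example 0.740% to 0.753% and 1.17% to 1.19% in the 2 wild-type BAG libraries, and they cover counting error only. The wild-type BAG libraries lay further apart than the libraries of either other group, and the mutant libraries lay between them. Both non-BAG libraries lay above all 4 BAG libraries.

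On the normalised scale the 78 genes summed to 65650 and 77697 in mutant BAG neurons, 51784 and 72855 in wild-type BAG neurons, against 89530 and 77806 in non-BAG cells. Wild-type BAG replicate 1 was again the lowest library. Mutant BAG replicate 2 and non-BAG replicate 2 were nearly level. The difference of the mean log2 sums was 0.22 for mutant against wild-type BAG neurons (exact permutation test, two-sided, p = 0.667). As a share of all reads that difference was 0.088, and as a share of reads outside ribosomal RNA genes 0.14 (exact permutation p = 1 in both). On the normalised scale it was -0.44 for wild-type BAG neurons against non-BAG cells and -0.22 for mutant BAG neurons against non-BAG cells (exact permutation p = 0.333 in both). With 2 libraries against 2 the test cannot go below 0.333. In bulk libraries, fewer cells of a type and less RNA per cell cannot be told apart.

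**Figure D1:**
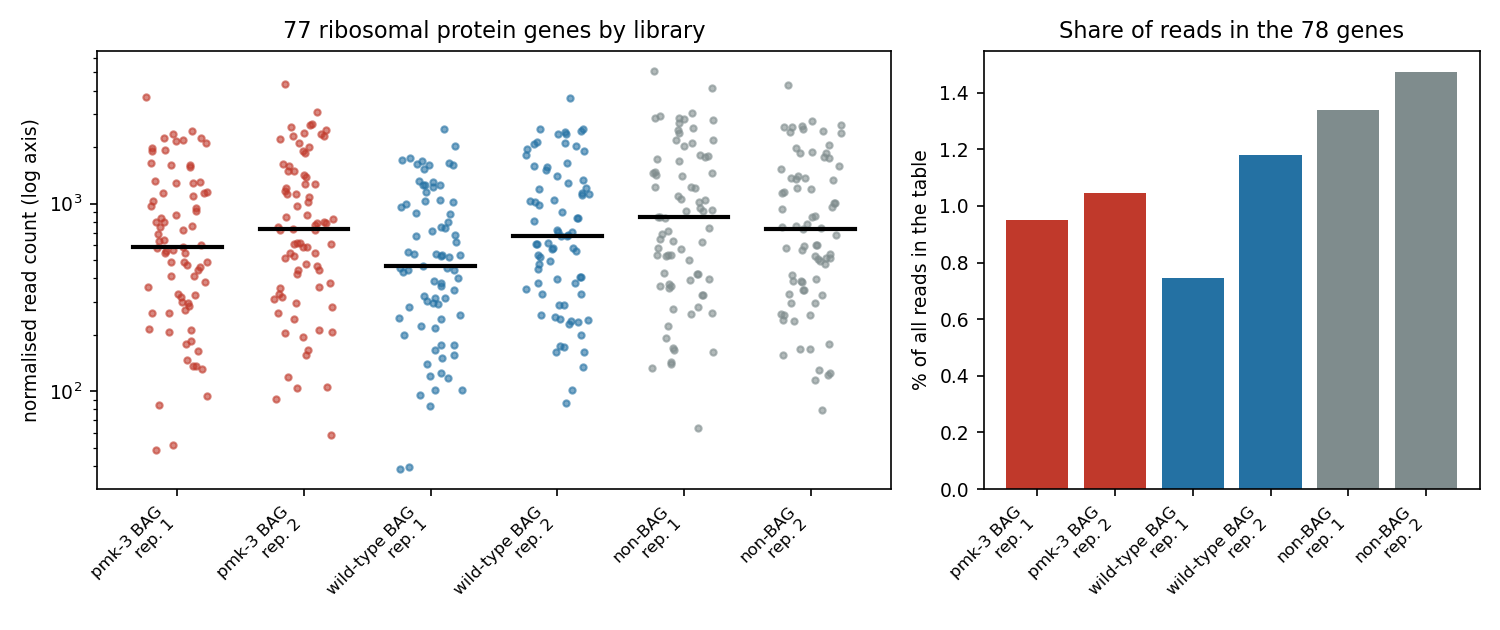
Left, normalised read counts (log axis) of the 77 tested ribosomal protein genes in each library, 1 point a gene, with the median as a black bar; right, the share of all reads (%) that fell in the 78 genes. The median gene was lowest in wild-type BAG replicate 1, at 464, and highest in non-BAG replicate 1, at 846.

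The family stood near the top of the transcriptome. Of the 78 members, 77 reached a normalised read count of at least 10 in at least 2 libraries and were tested. The exception, rpl-42, had 0 to 2 reads in each library. The 77 tested members had 42 to 6942 reads in single libraries. Per kilobase of exon, the median member had a mean level of 1329, at the 97.0th percentile of 12297 protein-coding genes, whose median was 62.6. All 77 tested members lay above that median and 68 lay in the top 10%. With the mean of each group alone, the median member stood at the 96.5th percentile in mutant BAG neurons, the 96.2nd in wild-type BAG neurons and the 97.7th in non-BAG cells.

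Within the family, levels per kilobase spanned 38.9-fold. The highest was rpl-18, with 6013 per kilobase, followed by rpl-23 with 4336, rps-30 with 4228, rps-27 with 3812 and rpl-6 with 3611. The product of rps-30 is in most animals made as a fusion with a ubiquitin-like protein, and that of rps-27 is a zinc-binding protein of the small subunit. The lowest tested members were rps-22 with 155 per kilobase, rpl-11.1 with 173, rps-21 with 205, rpl-30 with 229.9 and rpl-22 with 301. Proteins present in equal numbers in the ribosome, such as those of rpl-18 and rps-22, thus had mRNAs at quite unequal levels per length in these libraries. The gene listed as rpl-41 is rpl-36.A in the reference annotation.

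The members are short genes. Exonic length ran from 236 to 1456 bp with a median of 532 bp, against 1458 bp for all protein-coding genes tested, and the annotated proteins have 51 to 401 residues. Level per kilobase had a Spearman correlation of 0.23 with exonic length across the 77 genes, which share their libraries and are not independent. By chromosome, 23 members lie on I, 10 on II, 18 on III, 17 on IV, 8 on V and 2 on X. Introns of 12 members hold 17 annotated small nucleolar RNA genes, the guides of ribosomal RNA modification. Exons of 14 members overlap those of another gene, and the sources used here do not say whether reads were counted by strand. In 5 of them, rla-1, rpl-23, rpl-32, rpl-39 and rps-18, the partner's level was over 10% of the member's own, so their values are uncertain, although the overlaps span only 1 to 50 bp.

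**Figure D2:**
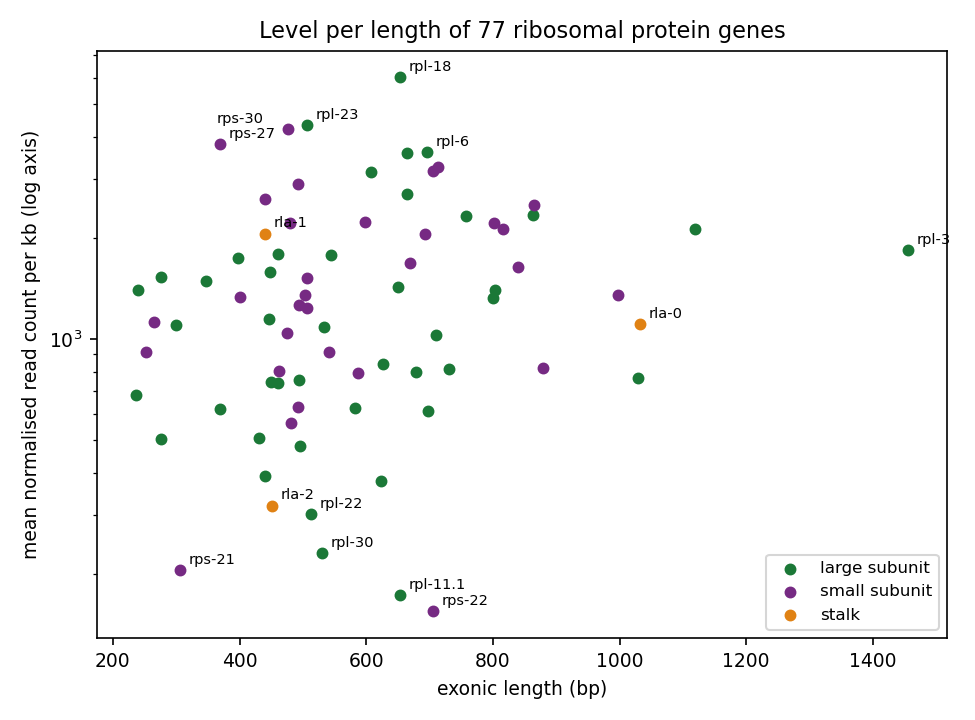
Mean normalised read count per kilobase (log axis, mean of the 6 libraries) of the 77 tested ribosomal protein genes against exonic length in bp, coloured by subunit, with the extremes and selected genes labelled. The longest gene, rpl-3 with 1456 bp, and short genes such as rps-27 with 369 bp both had high levels per kilobase.

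Most members shifted together between libraries. Wild-type BAG replicate 1 was the lowest of the 6 libraries for 72 of the 77 tested members, whereas it was the lowest for 13.1% of all genes tested. It lay below wild-type BAG replicate 2 in 77 of 77 members, with a median log2 difference of -0.51 against 0.00 for all genes. Mutant BAG replicate 1 lay below replicate 2 in 72 members, with a median of -0.24 against -0.014 for all genes. Non-BAG replicate 1 lay above replicate 2 in 64 members, with a median of 0.19 against 0.029 for all genes, and was the highest library for 51 members, against 23.4% of all genes. The family thus moved nearly as a block between libraries that carry the same label.

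Sums over other translation lists differed in both directions between the wild-type BAG replicates. Elongation factor genes summed to 22900 in replicate 1 and 30144 in replicate 2, with 21518 in mutant BAG replicate 1 the lowest of the 6 libraries, and genes listed for RNA polymerase I to 1119 and 1587. Mitochondrial ribosomal protein genes summed to 5825 and 6195, ribosome biogenesis genes to 22867 and 23091, and nascent chain factor genes to 6813 and 7276. Replicate 1 was the higher one for TOR and S6 kinase genes, at 7782 and 6305, and slightly for initiation factors, at 27605 and 27196. In that list pab-2 alone, at 10293 and 8567, differed by more than the whole sum. Aminoacyl-tRNA synthetases were nearly level, at 24153 and 24088. Total reads were 7592477 and 8596169, and the ribosomal RNA share was 11.5% and 10.4%. The part of depth or ribosomal RNA in the low values was not tested.

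Mutant and wild-type BAG neurons came from different strains, so the pmk-3 mutation cannot be told apart from other differences of strain or culture. In mutant compared with wild-type BAG neurons, no ribosomal protein gene passed the threshold (limma with a mean-variance trend, Benjamini-Hochberg adjusted p under 0.05). The count was 0 of 77 by limma, by edgeR and by DESeq2, 0 at an unadjusted p under 0.05 by limma, and the lowest limma adjusted p was 0.353. Of all 14211 genes tested, 0.837% passed, 0.486% higher and 0.352% lower in the mutant, and 15.9% were at an unadjusted p under 0.05. The median log2 change of the members was 0.20, against 0.02 for all genes, with 66 members above 0 and 11 below. Without wild-type BAG replicate 1 the median was -0.05, with 33 above and 44 below. Without wild-type BAG replicate 2 it was 0.46, with 73 above and 4 below. Without mutant BAG replicate 1 the median was 0.34, and without mutant BAG replicate 2 it was 0.08. The direction of this comparison therefore turned on a single wild-type library.

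The libraries did not overlap for 15 members with mutant BAG neurons higher (19.5%, against 26% of all genes tested) and for 1 member with mutant BAG neurons lower (1.30%, against 24.3%). The share on the higher side was near or under the share of all genes. The 95% limma interval of the change lay within 1 log2 unit of 0 for 57 of 77 members, and the median half-width was 0.65. These intervals are not adjusted for the number of genes tested. Changes in single genes smaller than 0.65, and some larger ones, could therefore be missed at the adjusted threshold. By subunit the medians were 0.17 for the large subunit, 0.27 for the small subunit and 0.03 for the stalk.

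The member with the highest log2 change in the mutant was rpl-29, a short large-subunit protein gene, with 382 and 378 in mutant BAG neurons against 221 and 287 in wild-type BAG neurons. Both mutant libraries were the higher ones, and the change of 0.59 ± 0.29 (SE) did not pass (limma adjusted p = 0.353). Next came rpl-32, with 547 and 608 in mutant against 312 and 478 in wild-type BAG neurons, and rpl-20, with 1939 and 2221 against 1254 and 1574. Their log2 changes were 0.58 and 0.56. The other 3 of the 6 highest were rpl-39 at 0.52, rps-15 at 0.51 and rps-23 at 0.50.

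The lowest log2 change was that of rpl-30, a large-subunit gene. It had 84.1 and 103.5 in mutant BAG neurons against 117 and 162 in wild-type BAG neurons, a change of -0.56 ± 0.33 (SE; limma adjusted p = 0.454). It was the 1 member whose mutant libraries both lay under both wild-type BAG libraries. Next came rpl-11.1, at -0.47 ± 0.70, whose standard error was the largest in the family, and rpl-19, at -0.46 ± 0.34. For rpl-19 the values were 1153 and 1412 in mutant BAG neurons and 1312 and 2359 in wild-type BAG neurons, so the groups overlapped. The remaining 3 of the 6 lowest were rps-27 at -0.33, rpl-12, which lies at the base of the stalk, at -0.17, and the stalk gene rla-2 at -0.15.

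**Figure D3:**
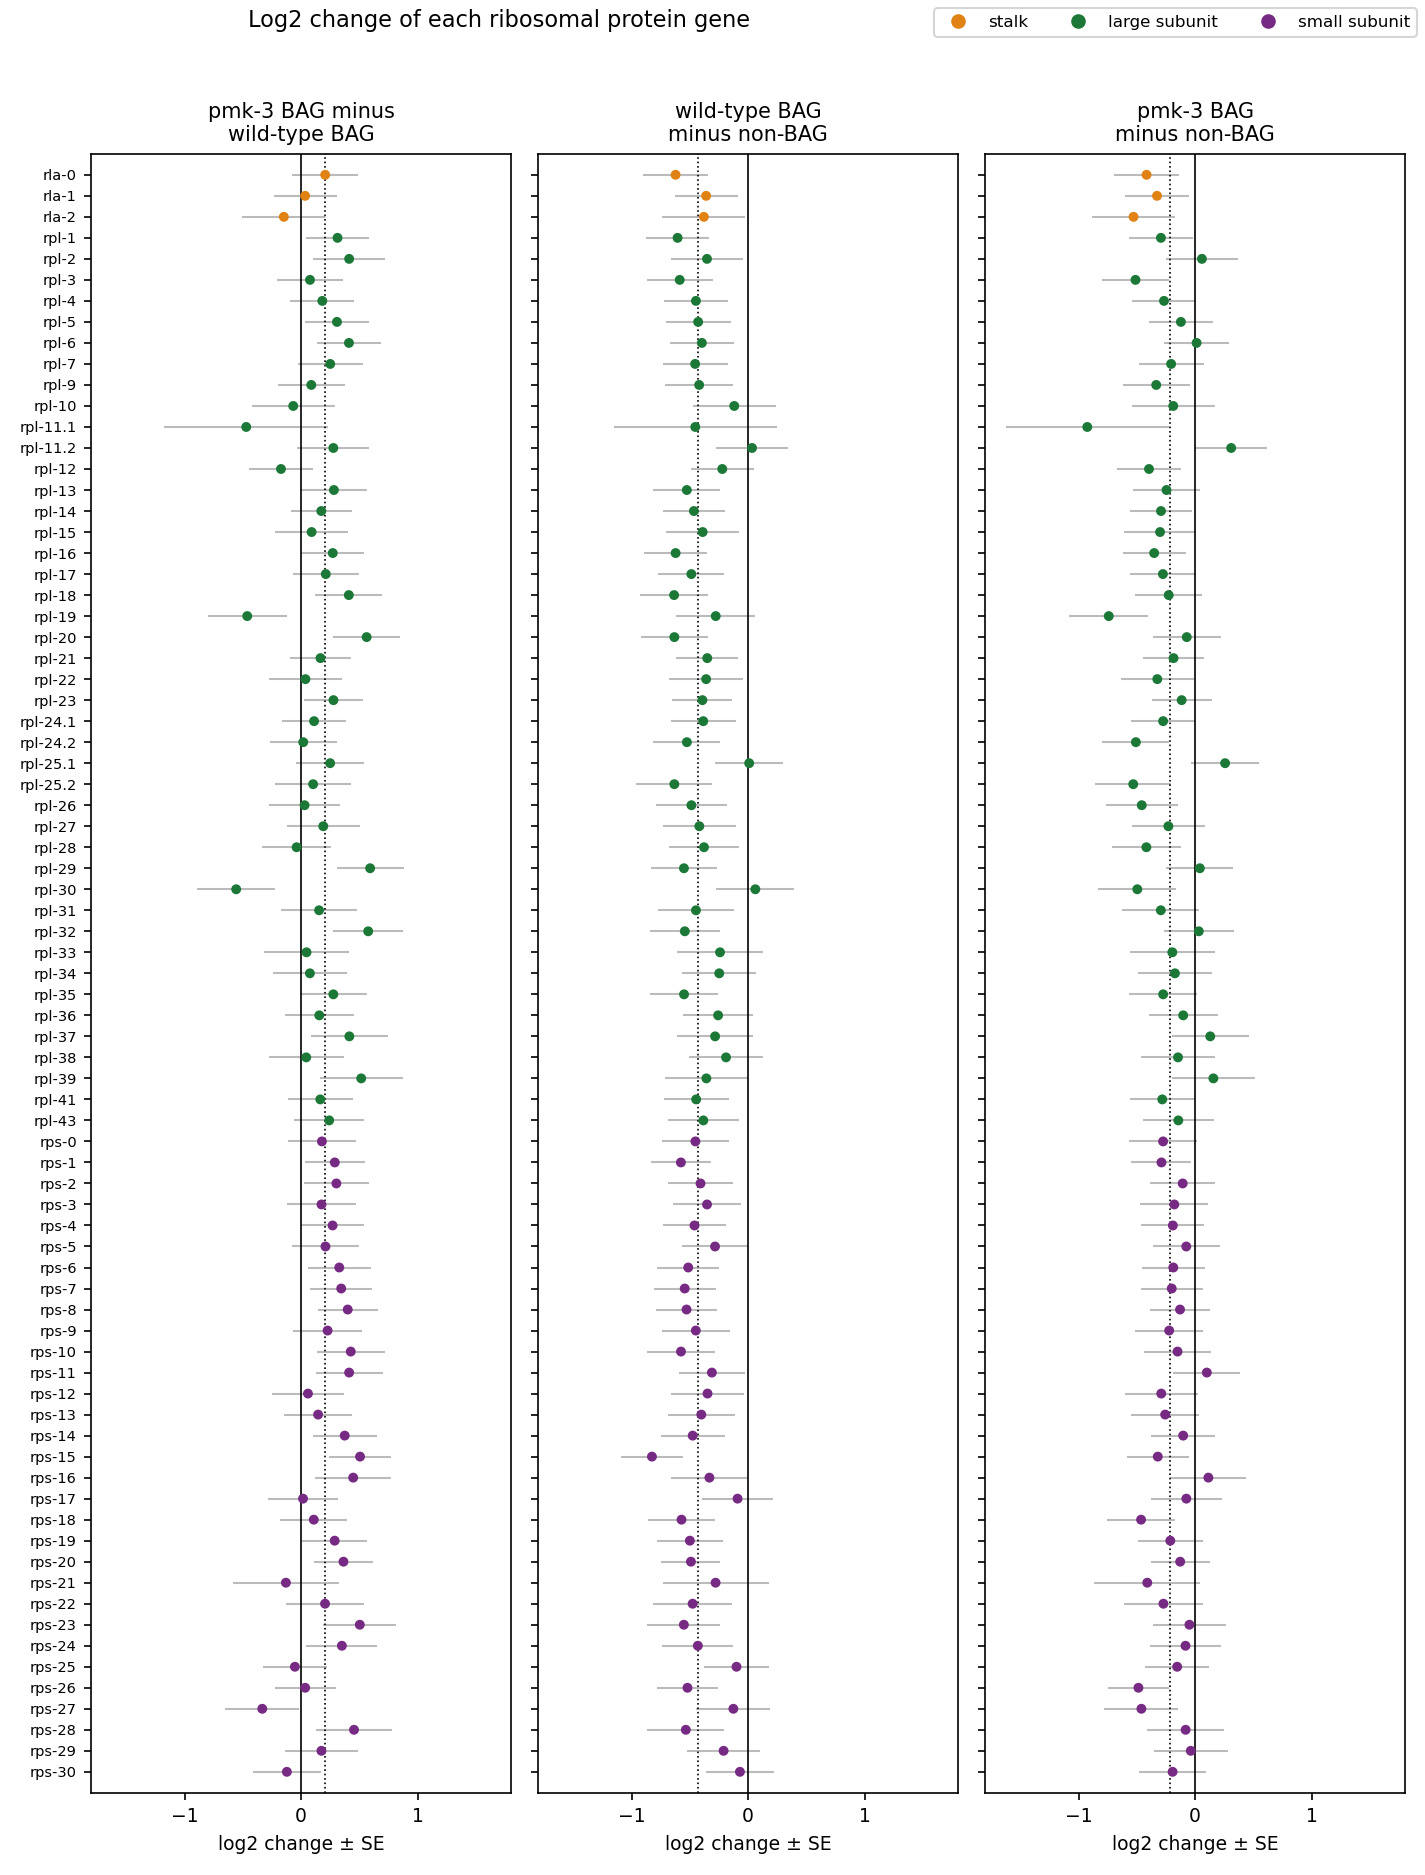
Log2 change ± SE of each of the 77 tested ribosomal protein genes (rows; stalk, large subunit, small subunit) in the 3 comparisons, with 0 as a solid line and the members' median as a dotted line. The points of each panel lie close to a common value, 0.20, -0.43 and -0.21 from left to right, and no gene passed the threshold in any panel.

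In wild-type BAG neurons compared with non-BAG cells, a comparison of 1 neuron type with a mixed population, ribosomal protein mRNAs had lower values nearly throughout, but none passed the threshold. The count was 0 of 77 by limma and by edgeR and 1 by DESeq2, namely rps-15, with 2 members at an unadjusted p under 0.05 by limma. Of all genes tested, 14.2% passed, 10.2% higher and 4.01% lower in wild-type BAG neurons, and 28.3% were at an unadjusted p under 0.05. The median log2 change was -0.43, against -0.04 for all genes, with 3 members above 0 and 74 below. Without wild-type BAG replicate 1 the median was -0.17, with 18 above and 59 below, and without wild-type BAG replicate 2 it was -0.69, with 0 above and 77 below. The median without non-BAG replicate 1 was -0.34 and without non-BAG replicate 2 -0.52. The direction held in each of these, while the size depended on which wild-type BAG library was kept.

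Both wild-type BAG libraries lay under both non-BAG libraries for 47 of 77 members (61.0%), against 25.2% of all genes tested. No member lay wholly above, against 28.4% of all genes. Without wild-type BAG replicate 1, replicate 2 alone lay under both non-BAG libraries in 47 members and above both in 12, against 35.6% and 38.1% of all genes. The medians by subunit were -0.42 for the large subunit, -0.45 for the small subunit and -0.38 for the stalk. The difference between the 2 wild-type BAG replicates, a median of 0.51 log2 units in size, was larger than the median change itself. The 95% interval of the change lay within 1 log2 unit of 0 for 18 members; for the others the interval reached beyond that size.

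The member nearest the threshold was rps-15, a small-subunit gene. It had 999 and 1027 in wild-type BAG neurons against 2034 and 1586 in non-BAG cells, and the groups did not overlap. Its change was -0.83 ± 0.26 (SE; limma adjusted p = 0.0699). Unlike most members it was nearly equal in the 2 wild-type BAG libraries. It was past the threshold by DESeq2 (adjusted p = 0.0408) and, in limma, without non-BAG replicate 2 (adjusted p = 0.0395), under quantile scaling (adjusted p = 0.0209) and with the replicate number as a block (adjusted p = 0.0449). Over all alternatives its adjusted p (limma, edgeR or DESeq2) ran from 0.0209 to 0.212.

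The next lowest values belonged to large-subunit genes. For rpl-18, the most abundant member per kilobase, levels were 2495 and 3649 in wild-type BAG neurons against 5105 and 4304 in non-BAG cells, a log2 change of -0.64 ± 0.29 (limma adjusted p = 0.186). Its groups did not overlap. The log2 changes of rpl-20, rpl-25.2, rpl-16 and the stalk gene rla-0 were -0.63, -0.63, -0.62 and -0.62. At the other end stood rpl-30 at 0.06, rpl-11.2 at 0.03 and rpl-25.1 at 0.01, with rps-30 at -0.07, rps-17 at -0.09 and rps-25 at -0.10. Both members on the X chromosome, rpl-11.2 and rpl-25.1, were among these 6.

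In mutant BAG neurons compared with non-BAG cells ribosomal protein mRNAs again had mostly lower values, and none passed. The count past the threshold was 0 of 77 by limma, by edgeR and by DESeq2, and 0 at an unadjusted p under 0.05 by limma. Of all genes tested, 25.5% passed, 16.2% higher and 9.34% lower in the mutant, and 38.8% were at an unadjusted p under 0.05. The median log2 change was -0.21, against -0.09 for all genes, with 10 members above 0 and 67 below. Both mutant libraries lay under both non-BAG libraries for 34 of 77 members (44.2%), against 34% of all genes, and above both for 1 (1.30%), against 32.1%. The median was -0.09 without mutant BAG replicate 1, -0.35 without mutant BAG replicate 2, -0.11 without non-BAG replicate 1 and -0.32 without non-BAG replicate 2. This comparison shares its non-BAG libraries with the one before and its mutant libraries with the first, so the 3 are not independent.

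The lowest values were those of rpl-11.1 and rpl-19. The binder of 5S ribosomal RNA encoded by rpl-11.1 had 51.7 and 90.8 in mutant BAG neurons against 132 and 130.2 in non-BAG cells, a log2 change of -0.92 ± 0.70 (limma adjusted p = 0.363). For rpl-19, levels were 1153 and 1412 in mutant BAG neurons against 1771 and 2570 in non-BAG cells, a change of -0.74 ± 0.34 (limma adjusted p = 0.137). Neither pair of groups overlapped. They were followed by rpl-25.2 at -0.53, rla-2 at -0.53, rpl-3 at -0.51 and rpl-24.2 at -0.51. The product of rpl-3 reaches toward the peptidyl transferase centre.

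The highest were rpl-11.2, with 583 and 767 in mutant BAG neurons against 571 and 510 in non-BAG cells, and rpl-25.1, with 360 and 476 against 364 and 329. The groups did not overlap for rpl-11.2 and did for rpl-25.1. Their log2 changes were 0.31 ± 0.31 and 0.26 ± 0.29 and did not pass (limma adjusted p = 0.493 and 0.547). The other 4 of the 6 highest were rpl-39 at 0.16, rpl-37 at 0.13, rps-16 at 0.11 and rps-11 at 0.10.

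**Figure D4:**
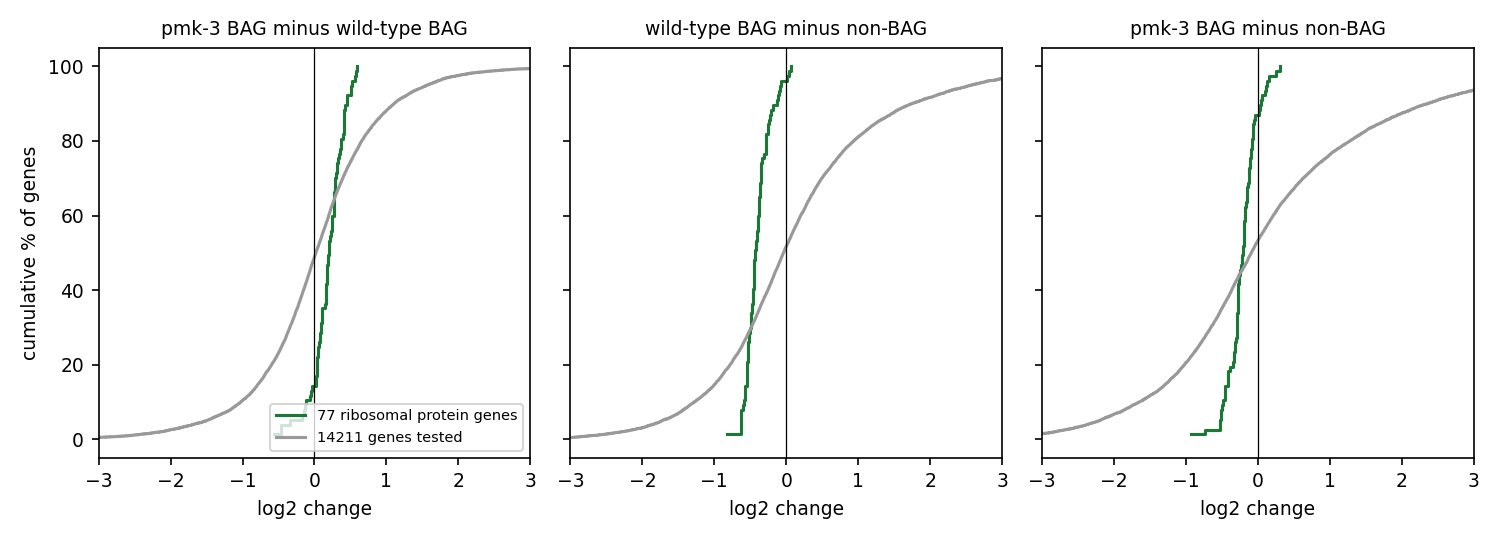
Cumulative share of genes (%) against log2 change for the 77 tested ribosomal protein genes (green) and all genes tested (grey) in the 3 comparisons. The members form a narrow band whose middle lies at 0.20, -0.43 and -0.21 from left to right, where the broad curve of all genes has its middle at 0.02, -0.04 and -0.09.

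Proportions within the family were nearly constant while its total varied. The summed large-subunit genes stood to the summed small-subunit genes at 1.26 and 1.27 in mutant BAG neurons, 1.25 and 1.27 in wild-type BAG neurons, against 1.30 and 1.27 in non-BAG cells. Across the 77 genes, the Pearson correlation of log2 levels between libraries was 0.967 to 0.991, against 0.751 to 0.954 across all 14211 genes. The members share gene length and mapping in both libraries of a pair, and these coefficients are descriptions. The members also stand above most protein-coding genes in level per kilobase, and no comparison with genes of like level was made. Each member was also set against the median member of its own library, which removes any scaling of libraries. The SD of that log2 distance over the 6 libraries had a median of 0.14 and was under 0.2 for 55 members. The steadiest was rpl-13, with an SD of 0.026, and the least steady were rpl-11.1 with 0.76, rpl-19 with 0.41 and rpl-30 with 0.36.

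The distance of rpl-30 from the median member was -2.78 and -2.81 log2 units in mutant BAG neurons, -1.98 and -2.04 in wild-type BAG neurons, against -2.59 and -2.55 in non-BAG cells. Its replicates lay close together and the groups lay apart. For rpl-19 the distance was 0.98 and 0.94 in mutant BAG neurons, 1.50 and 1.81 in wild-type BAG neurons, against 1.07 and 1.81 in non-BAG cells. The mutant libraries were the lowest, and the wild-type groups overlapped. For rps-27 it was 0.69 and 0.91, 1.30 and 1.43, and 0.74 and 1.25 in the same order of groups, so wild-type BAG neurons were the highest. With rps-15 the distance was 1.13 and 1.14 in mutant BAG neurons, 1.11 and 0.62 in wild-type BAG neurons, against 1.26 and 1.11 in non-BAG cells, so that only wild-type BAG replicate 2 stood apart.

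In 3 pairs, both genes carry 1 ribosomal protein name. The products of rpl-25.1 and rpl-25.2 are both relatives of human RPL23A, and those of rpl-11.1 and rpl-11.2 of human RPL11. In the remaining pair, rpl-24.1 encodes the ribosomal protein, whereas rpl-24.2 is related to the biogenesis factor RLP24. The sources used here do not say how reads that match both copies of a pair were counted, so the split within a pair is uncertain.

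Per kilobase, rpl-25.1 stood to rpl-25.2 at a ratio of 1.71 and 2.33 in mutant BAG neurons, 1.93 and 1.69 in wild-type BAG neurons, against 1.03 and 1.29 in non-BAG cells. All 4 BAG libraries lay above both non-BAG libraries, and the mutant and wild-type BAG groups overlapped. Against non-BAG cells the log2 difference of the ratio was 0.79 for mutant and 0.65 for wild-type BAG neurons. The exact permutation test gave p = 0.333 for each, the smallest it can give.

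The X-linked copy rpl-11.2 stood to rpl-11.1 at 10.1 and 7.55 in mutant BAG neurons, 10.1 and 2.67 in wild-type BAG neurons, against 3.86 and 3.50 in non-BAG cells. The wild-type BAG libraries spanned the non-BAG values, because rpl-11.1 had 38.4 in replicate 1 and 236 in replicate 2, the largest gap between replicates among the members named here. The log2 difference of the ratio was 0.75 for mutant against wild-type BAG neurons (exact permutation p = 1) and 1.25 for mutant BAG neurons against non-BAG cells (exact permutation p = 0.333).

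For rpl-24.1 and rpl-24.2 the ratio was 2.84 and 3.39 in mutant BAG neurons, 2.73 and 3.10 in wild-type BAG neurons, against 2.48 and 2.80 in non-BAG cells, with mutant and non-BAG libraries apart and the other groups overlapping. Over the 3 pairs and 3 comparisons no exact permutation p was under 0.333. Seen against the median member, rpl-25.1 lay at -0.69 and -0.62 in mutant BAG neurons, -0.63 and -0.73 in wild-type BAG neurons, against -1.21 and -1.15 in non-BAG cells. The distance of rpl-11.2 was 0.00 and 0.06, -0.10 and 0.07, and -0.57 and -0.52 in the same order of groups. Both X-linked copies held a higher place within the family in all 4 BAG libraries than in either non-BAG library, as did 9 autosomal members. The reverse held for 1 of the 77 tested members. The same count was not made over all genes, so whether these counts are unusual was not tested.

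**Figure D5:**
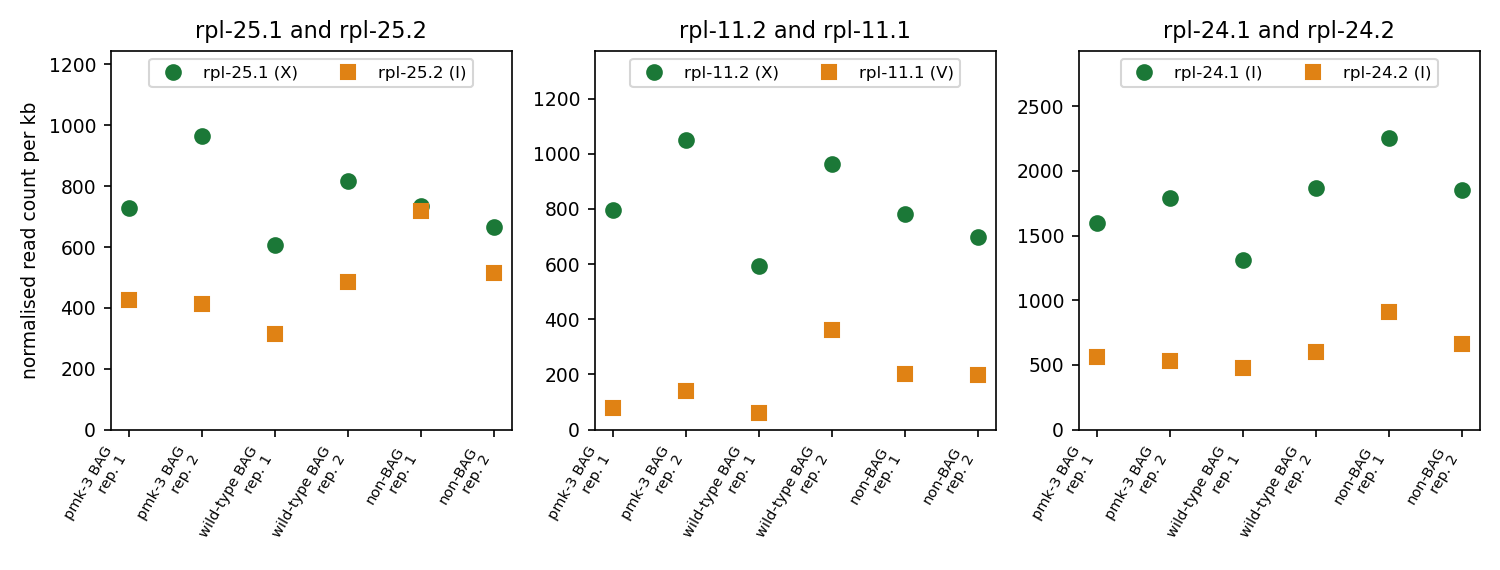
Normalised read count per kilobase of the copies of 3 ribosomal protein gene pairs in each library, with their chromosomes in brackets. The rpl-25 copies were nearly level in non-BAG replicate 1, at a ratio of 1.03, and furthest apart in mutant BAG replicate 2, at 2.33.

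None of the stalk genes passed the threshold in any comparison by limma, with 0 at an unadjusted p under 0.05. The scaffold gene rla-0 had 976 and 1166 in mutant BAG neurons, 754 and 1133 in wild-type BAG neurons, against 1474 and 1375 in non-BAG cells, so all BAG libraries lay below both non-BAG libraries. The acidic protein gene rla-1 had 833 and 845 in mutant, 682 and 986 in wild-type BAG neurons, against 1096 and 1011 in non-BAG cells. The second acidic gene, rla-2, had 137 and 105 in mutant, 101 and 174 in wild-type BAG neurons, against 169 and 177 in non-BAG cells. Per kilobase, rla-1 had a mean level of 2061 and rla-2 of 319, although their products form pairs in the known stalk. All 3 had log2 changes against non-BAG cells that did not pass the threshold. In mutant BAG neurons all 3 lay wholly below non-BAG cells, as did 44.2% of all tested members and 34% of all genes tested.

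Ribosomal proteins that the naming rule leaves out had median changes of the same sign as the members, but not every gene shifted. They are rpl-7A, the ubiquitin fusion genes ubl-1 and ubq-2, and rack-1, a scaffold on the small subunit. None of the 4 passed in any comparison by limma. For wild-type BAG neurons against non-BAG cells 1 was at an unadjusted p under 0.05, as were 28.3% of all genes tested. The count was 0 in the other comparisons. Their median log2 change was 0.31 for mutant against wild-type BAG neurons, -0.53 for wild-type BAG neurons against non-BAG cells, and -0.15 for mutant BAG neurons against non-BAG cells. The highest means belonged to rack-1, with 3081 and 3684 in mutant, 1998 and 3209 in wild-type BAG neurons, against 3850 and 3141 in non-BAG cells, and to ubq-2. For rack-1, too, wild-type BAG replicate 1 was the lowest library. The log2 changes of ubq-2 were near 0, at 0.06, -0.04 and 0.02 in the order of the medians above. For ubl-1 wild-type BAG replicate 2 was the lowest library, at 191, with 198 in replicate 1.

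In the other translation lists no gene passed between mutant and wild-type BAG neurons, where 0.837% of all genes tested did. Against non-BAG cells, where 25.5% of all genes passed for the mutant and 14.2% for the wild type, most lists had some calls for the mutant and few had any for the wild type. Among 9 elongation factor genes, efk-1, the kinase that inhibits elongation factor 2, fell in both BAG groups. It had 1183 and 1013 in mutant, 1372 and 759.9 in wild-type BAG neurons, against 2657 and 2110 in non-BAG cells, with log2 changes of -1.11 ± 0.32 in the mutant and -1.21 ± 0.32 in the wild type (limma adjusted p = 0.0319 and 0.0341). The list's median was -0.37 for the mutant and -0.15 for the wild type. The abundant factors eef-1A.1, eef-1A.2 and eef-2 did not pass.

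Of 24 initiation factor genes, ife-5, a cap-binding protein, rose and inf-1, the RNA helicase eIF4A, fell in mutant BAG neurons against non-BAG cells, with log2 changes of 2.73 ± 0.57 and -0.88 ± 0.26. None passed in wild-type BAG neurons against non-BAG cells, where 2 were at an unadjusted p under 0.05, against 28.3% of all genes tested. In mutant against wild-type BAG neurons none passed by limma, and the list median was -0.52. In that comparison 9 were at an unadjusted p under 0.05, as were 15.9% of all genes tested. Of 3 nascent chain factor genes none passed. In mutant BAG neurons against non-BAG cells 1 was at an unadjusted p under 0.05, as were 38.8% of all genes tested. The count was 0 in mutant against wild-type BAG neurons (15.9% of all genes) and 0 in wild-type BAG neurons against non-BAG cells (28.3%).

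In mutant BAG neurons against non-BAG cells 9.34% of all genes tested fell and 16.2% rose. Of 19 tested ribosome biogenesis genes, 5 fell and none rose in that comparison, with a list median of -0.59. They were pro-2 at -1.37 ± 0.37, dao-5 at -1.30 ± 0.27, lpd-6 at -1.12 ± 0.36, toe-1 at -1.09 ± 0.24 and nol-1 at -0.96 ± 0.31, of which dao-5 and nol-1 encode nucleolar proteins. In wild-type BAG neurons against non-BAG cells none passed and the median was -0.44, with 3 at an unadjusted p under 0.05, against 28.3% of all genes tested. In mutant against wild-type BAG neurons the median was -0.27, with 0 at an unadjusted p under 0.05, where ribosomal protein genes had 0.20. Of 6 genes listed for RNA polymerase I, which transcribes ribosomal RNA, the subunit genes rpoa-12 and rpoa-49 fell in mutant BAG neurons against non-BAG cells, with log2 changes of -1.60 ± 0.51 and -1.11 ± 0.27.

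The list of TOR and S6 kinase genes, which link nutrient supply to ribosome production, had 1 call among 8: aak-2, the catalytic subunit of AMP-activated kinase, rose by 1.46 ± 0.40 in mutant BAG neurons against non-BAG cells. Of 65 tested mitochondrial ribosomal protein genes, mrpl-32 and mrpl-39 fell in that comparison and the list median was -0.33. No mitochondrial ribosomal protein gene passed in the other comparisons. At an unadjusted p under 0.05 were 4 in mutant against wild-type BAG neurons and 3 in wild-type BAG neurons against non-BAG cells. The shares of all genes tested were 15.9% and 28.3%. Of 33 aminoacyl-tRNA synthetase genes, which charge tRNAs, 8 fell and 2 rose in mutant BAG neurons against non-BAG cells. The shares of all genes tested were 9.34% and 16.2%. In wild-type BAG neurons against non-BAG cells 1 fell and 2 rose, against 4.01% and 10.2% of all genes tested. For the synthetases the median in mutant against wild-type BAG neurons was -0.42, with none past the threshold by limma. In that comparison 8 were at an unadjusted p under 0.05, as were 15.9% of all genes tested.

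Other cell features moved with the sort. Of all genes tested, 9.34% fell and 16.2% rose in mutant BAG neurons against non-BAG cells. For wild-type BAG neurons these shares were 4.01% and 10.2%. Of 14 cell division genes, 11 fell in mutant BAG neurons and 8 fell in wild-type BAG neurons against non-BAG cells, and their sum was 2367 and 2721 in mutant, 2962 and 3396 in wild-type BAG neurons, against 10084 and 6076 in non-BAG cells. Of 12 pan-neuronal genes 11 rose in each. Of 10 body wall muscle genes 9 fell and 1, unc-54, rose in each, and all 3 coelomocyte genes fell. The summed muscle genes were nevertheless higher in BAG neurons, at 47849 and 52097 in mutant, 42195 and 38944 in wild-type, against 32055 and 27378 in non-BAG cells. Glia markers had 1 fall in 4 tested genes in wild-type BAG neurons and germline markers 1 fall in 6 in mutant BAG neurons, whereas pharynx, hypodermis and intestine markers had none past the threshold. Intestine markers were near 0, with sums of 24.8 and 32.2 in mutant, 32.9 and 46.7 in wild-type BAG neurons, against 36.8 and 109 in non-BAG cells. No marker gene was at 0 in every library. The part of these cell types and of cell division in the ribosomal protein values was not tested.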

How the data were processed

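RNA was sequenced in 6 libraries, 2 for each of 3 sorted populations, as 100-base read pairs. The authors deposited a single table of normalised counts, used here as a signal for each of 47063 genes. STAR, HTSeq and DESeq2 are named, without versions, in the submitters' processing notes. The sources used here do not give the genome build, annotation or strand setting, and coordinates are therefore not printed. In each library all values (100%) were whole multiples of the value of 1 read, to within 0.01 of a read, and 6181113 to 8596169 reads a library were recovered.

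The 14211 genes that reached a value of 10 in 2 or more libraries were tested. Limma 3.58.1 in R 4.3.3 was applied to log2(value + 1) with the 3 groups together and a mean-variance trend, two-sided, with Benjamini-Hochberg adjustment over all genes tested and a threshold of 0.05. On this scale the changes of low genes are understated. Summed levels and paralog ratios were compared by exact permutation tests (SciPy 1.17.1). The steps were tested on simulated data in which genes varied independently, so a shift shared by a family was not covered. Exonic lengths, chromosomes, small nucleolar RNA genes and overlaps came from the Ensembl release 115 annotation, which held 78 of 78 members, 1 of them renamed.

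Members, gene lists and tests were chosen with earlier results of these data known. Named members are the stalk genes, paralogs, the untested gene, the 5 highest and 5 lowest per kilobase, and the 6 highest and 6 lowest log2 changes in each comparison. The steadiest member, rpl-13, was named after its values were seen. Other lists name the genes past the threshold or the most abundant.

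The alternatives tried were a pseudocount of 0.5 or 8, no minimum, a minimum mean of 50, TMM or quantile scaling, the quasi-likelihood test of edgeR 4.0.16 and the test of DESeq2 1.42.0 (both on recovered reads), no trend, fits of the compared groups alone, a block for the replicate number, and fits without each library. For the paralog ratios, leaving out libraries was added after the data were seen.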

Additional observations from a re-analysis of the deposited data

How the results depend on the processing

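The count of members past the threshold stayed at 0 in mutant against wild-type BAG neurons under all alternatives run, where the lowest adjusted p ranged between 0.159 and 0.740 over limma, edgeR and DESeq2. In wild-type BAG neurons against non-BAG cells it was 1 under quantile scaling and DESeq2, and 0 to 1 over the libraries left out. In mutant BAG neurons against non-BAG cells it was 1 under quantile scaling, namely rpl-3 (-0.72), and 0 to 0 over the libraries left out. The gene gained in wild-type BAG neurons against non-BAG cells was rps-15 each time, at -0.96 under quantile scaling. The members' median log2 change kept its sign under every scaling, filter, pseudocount and tool, at 0.17 to 0.31 in mutant against wild-type BAG neurons, -0.53 to -0.41 in wild-type BAG neurons against non-BAG cells and -0.36 to -0.13 in mutant BAG neurons against non-BAG cells. TMM scaling moved the median of all genes to 0.13 in the first comparison and quantile scaling to -0.23 in the last. The summed level of mutant BAG neurons against non-BAG cells was -0.49 as a share of all reads and -0.47 as a share of reads outside ribosomal RNA genes, against -0.22 on the normalised scale, since the scaling values and the read totals differ.

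With the replicate number as a block, 1 member passed in wild-type BAG neurons against non-BAG cells (rps-15) and 1 in mutant BAG neurons against non-BAG cells (rpl-19, -0.74), and 0 in mutant against wild-type BAG neurons. Same-numbered libraries had deviation correlations of 0.46 (wild-type BAG with non-BAG), 0.00 (mutant BAG with non-BAG) and 0.05 (mutant with wild-type BAG). The labels do not say whether same-numbered libraries share a culture or sort day, so the main fit had no block. The 0.46 belongs to the groups sorted from the same strain, and whether their libraries are pairs was not tested. In wild-type BAG neurons against non-BAG cells, 1836 of all genes tested rose and 1011 fell with the block, against 1444 and 570 without it.

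Sign changes were followed only for the 36 named values, the 6 highest and 6 lowest log2 changes of each comparison, and 12 changed sign. Many more members changed sign without wild-type BAG replicate 1. In mutant against wild-type BAG neurons 33 of 77 were then above 0, where 66 were with all libraries. None of the 12 named values was past the threshold in its main value. Most of these lay near 0, whereas rpl-11.1 in mutant against wild-type BAG neurons was at -0.47. In wild-type BAG neurons against non-BAG cells, rpl-25.1 was at -0.018 under TMM scaling, -0.083 under quantile scaling and -0.0048 by edgeR, and quantile scaling gave -0.063 for rpl-11.2 and -0.013 for rpl-30. In mutant BAG neurons against non-BAG cells it gave -0.049 for rps-11. Over the libraries left out, the ranges in wild-type BAG neurons against non-BAG cells were -0.26 to 0.075 for rps-17, -0.31 to 0.11 for rps-25, -0.38 to 0.23 for rps-30, -0.32 to 0.38 for rpl-11.2, -0.20 to 0.22 for rpl-25.1 and -0.17 to 0.30 for rpl-30. In mutant against wild-type BAG neurons they were -0.53 to 0.24 for rla-2, -1.77 to 0.82 for rpl-11.1 and -0.45 to 0.11 for rpl-12. In mutant BAG neurons against non-BAG cells they were -0.088 to 0.35 for rpl-37, -0.011 to 0.33 for rpl-39 and -0.068 to 0.27 for rps-11. Leaving out wild-type BAG replicate 1 gave a log2 difference of the rpl-11.2 to rpl-11.1 ratio of -0.46 in wild-type BAG neurons against non-BAG cells and 1.71 in mutant against wild-type BAG neurons. Leaving out replicate 2 gave 1.46 and -0.21. The cause of these shifts was not tested. Where 1 library remained in a group, its spread was taken from the other groups. Counting error was largest for the lowest members, down to 42 reads for rpl-11.1 in a single library, and the part of depth and of the number of libraries in the precision was not tested.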
